A study of Mus musculus with 12 samples.

Results

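The cells described here are the germ cells of mouse gonads that could not make 1 of the 2 main splice variants of WT1, a zinc finger transcription factor of the gonadal soma. A cell was kept when at least 1000 genes were detected and at most 10% of its UMIs (unique molecular identifiers, which count RNA molecules) were mitochondrial. Germ cells were chosen by the summed UMIs of 5 genes, Dppa5a, Pou5f1, Ddx4, Dazl and Dppa3, with at least 20 UMIs required. This rule found 3901 germ cells among 53539 kept cells of the 8 mutant libraries, 2436 of them in -KTS KO and 1465 in +KTS KO. With the same thresholds the 4 WT libraries held 4143, so that 8044 of the 83513 kept cells of all 12 libraries were germ cells. The levels of the 5 genes served only to find the cells and are given as a description.

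Gonads were collected at E12, at 23 ± 3 tail somites, from mice on a mixed background, and were profiled by droplet single-cell RNA sequencing in 2 libraries for each of 6 groups. The groups were XX and XY embryos of the wild type (WT), of -KTS KO and of +KTS KO. -KTS KO embryos were homozygous for a Wt1 allele that cannot give the variant without the amino acids lysine, threonine and serine (KTS), and +KTS KO embryos, a model of Frasier syndrome, for an allele that cannot give the variant with them. Both alleles were constitutive, so that germ cells and soma carried the same genotype, and the gonads of several embryos were pooled in most -KTS KO libraries. The libraries differed in tail somite stage within this range, and the parts of stage and of the mixed background in the results were not tested. UMI counts per gene do not separate the 2 variants of Wt1, so the genotypes were taken from the labels without a check. The study compared the sex of the gonad between these genotypes, and the question asked here was how the germ cells inside the mutant gonads differed from those of WT gonads of the same chromosomal sex.

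Mouse germ cells arrive in the gonad with a pluripotency-like set of active genes, switch on germline genes such as Ddx4 and Dazl there, and then follow signals of the surrounding soma rather than their own sex chromosomes. In a testis they respond to the secreted ligand NODAL through its co-receptor CRIPTO (gene Tdgf1), which switches on Lefty1 and Lefty2, and they later express Nanos2 and Dnmt3l and stop dividing. In an ovary BMP and WNT ligands and retinoic acid act on them, Id1, Msx2, Gata2 and Zglp1 are among the genes that follow, and Stra8 and the meiotic genes come later. Lefty1 and Lefty2 encode secreted inhibitors of NODAL.

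The cells bore out the label. All 14 germ cell markers that the rule did not use and that the files held, among them Sall4, Kit, Dnd1, Nanos3 and Tfap2c, were higher in the germ cells than in the other kept cells in all 12 libraries. Their summed level was 2529 to 4807 CPM (UMI counts scaled to a library total of 1e+06) in germ cells and 48.9 to 167 CPM in the other cells. All 18 gonadal soma markers and all 10 blood markers were lower in the germ cells in every library, as were 12 of 16 supporting cell, 7 of 10 endothelial, 6 of 10 immune and 4 of 10 mesonephric duct markers. Emx1 and Lhx1, of the duct list, were higher in the germ cells in every library. Germ cells held a median of 23795 to 61744 UMIs per library and the other kept cells 10342 to 19196. These germ cell medians were 23795 to 36017 UMIs in WT and 30544 to 61744 in the mutants. The median mitochondrial share of germ cells was 3.27% to 3.94% in the 4 WT libraries and 1.75% to 2.71% in the 8 mutant libraries. The part of these quality differences in the results was not tested. A library's germ cells summed to 9507996 to 44201419 UMIs.

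RNA of other cells was present in the germ cell sums, and unequally. The 18 soma markers summed to 231 to 268 CPM in XY WT germ cells, 86.5 to 143 CPM in XX WT, 159 to 192 CPM in XX -KTS KO, 84.1 to 250 CPM in XY -KTS KO, 67.0 to 225 CPM in XX +KTS KO and 76.2 to 246 CPM in XY +KTS KO. These sums were 3.01% to 16.6% of the level in the other kept cells of the same library. The 16 markers of supporting cells, the lineage that gives Sertoli and granulosa cells, summed to 195 to 216 CPM in XX WT, 318 to 332 CPM in XY WT and 58.8 to 193 CPM in the mutants. The blood markers were the most uneven of these sums, at 337 and 1387 CPM in XX WT, 3794 and 4147 CPM for XY WT, and 53.3 to 5639 CPM in the mutants, or 0.49% to 40.6% of the level in the other kept cells. Genes are therefore called germ-enriched below when their mean over the 12 libraries was at least as high in germ cells as in the other kept cells, and calls are counted over all genes and over these genes. Any 2 libraries shared 6 to 46 cell barcodes, at most 2 of them in germ cells.

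XX -KTS KO replicate 2 stood apart. It held 103 of the 181 cells with 15 to 19 UMIs of the 5 genes, just outside the threshold, and 62 of the 133 cells with 20 to 24 UMIs, just inside it. These cells had a median of 3262 and 3711 UMIs in all, far below the germ cells as a whole. The other kept cells of that library carried the 5 genes at 136 CPM, against 4.08 to 31.7 CPM in the other libraries, so in comparisons that hold this library the calls lost without it are marked.

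To compare germ cell numbers, the share of germ cells among the kept cells was taken in each library. It was 14.1% and 7.40% in the XX WT libraries (replicate 1, then replicate 2, here and below) and 14.4% and 19.7% in XY WT. In -KTS KO it was 5.86% and 17.7% in XX and 9.29% and 7.91% in XY. In +KTS KO it was 5.45% and 3.14% in XX and 7.51% and 2.65% in XY. The exact 95% binomial interval of a single library was 13.33% to 14.97% in XX WT replicate 1 and 2.31% to 3.02% in XY +KTS KO replicate 2, the lowest, and covers counting error only.

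The +KTS KO libraries were the lowest as a group and the genotypes overlapped. The mean share was 13.9% ± 5.05 (SD, n = 4) in WT, 10.2% ± 5.22 in -KTS KO and 4.69% ± 2.25 in +KTS KO. In two-sided exact permutation tests over libraries, +KTS KO differed from WT by -9.22 percentage points (n = 4 against 4, p = 0.0571, adjusted over 3 comparisons 0.0857), and -KTS KO differed from WT by -3.71 points (exact p = 0.343, adjusted 0.343). -KTS KO exceeded +KTS KO by 5.51 points (exact p = 0.0571, adjusted 0.0857), and by 3.00 points without XX -KTS KO replicate 2. The smallest p this design allows is 0.0286, and no comparison passed 0.05. A share also moves with the number of other cells captured, so it does not give the number of germ cells per gonad.

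**Figure D1:**
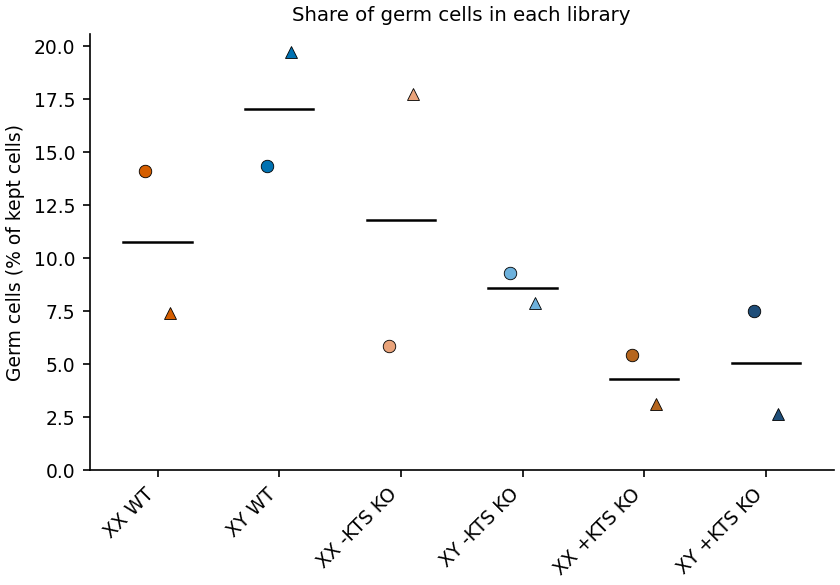
Share of germ cells among the kept cells of each library, in percent, by group; circles are replicate 1, triangles replicate 2 and the bars group means. The 4 +KTS KO libraries sit between 2.65% and 7.51%, and the -KTS KO libraries spread from 5.86% to 17.7%.

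Next, UMIs were summed over the germ cells of each library and the sums were compared with edgeR's quasi-likelihood test over 14865 genes, with Benjamini-Hochberg adjustment and a threshold of 0.05. Folds are log2 differences ± SE, and CPM values are scaled by edgeR's TMM factors. In such sums fewer cells with an RNA and less RNA per cell cannot be told apart. The genes named were chosen by a rule given with the methods, and a gene outside it is said to have been chosen after its values were seen.

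Of the germ cell markers that the rule did not use, 14 were tested and none was called between a mutant and WT. Over both sexes 0.309% of all genes were called in -KTS KO and 0.0404% in +KTS KO, so few calls would fall to a list of this size. The levels of the genes that chose the cells follow as a description, except that of Ddx4, which is not given here. Dppa5a, a pluripotency-associated gene that helped to find the cells, lay between 2891 and 5396 CPM over the 12 libraries, Pou5f1 between 404 and 654 CPM and Dppa3 between 1105 and 1829 CPM, with mutant and WT libraries interspersed. Dazl, which encodes an RNA-binding protein of germ cells, was at 346 and 254 CPM in XX WT, 260 and 332 CPM for XY WT, 145 and 117 CPM for XX -KTS KO, 111 and 314 CPM for XY -KTS KO, 370 and 157 CPM for XX +KTS KO, and 570 and 261 CPM for XY +KTS KO. Of 24 pluripotency genes tested, which include Nanog and Sox2, none was called in either mutant against WT (0.309% and 0.0404% of all genes were called). Their median difference was 0.18 in -KTS KO and 0.15 in +KTS KO on the log2 scale, where all genes had a median of -0.004 and -0.002. Of 25 germline genes switched on in the gonad none was called either, at the same shares over all genes, with medians of 0.09 and 0.01. Kit, the receptor for the survival factor KIT ligand, was at 66.4 and 69.4 CPM in XX WT, against 92.2 and 99.3 CPM for XX -KTS KO, and over both sexes the difference of -KTS KO from WT was 0.48 ± 0.16 (edgeR adjusted p = 0.213).

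Over both sexes together, 46 genes differed between -KTS KO and WT germ cells, 0.309% of all genes tested, 13 higher and 33 lower. Only 4 of them were germ-enriched, which is 0.0584% of the 6844 germ-enriched genes. Aurkc, a kinase of the germline, was at 26.3 and 25.7 CPM in XX WT, 26.6 and 19.7 CPM for XY WT, 48.4 and 66.8 CPM for XX -KTS KO, and 38.4 and 40.8 CPM for XY -KTS KO. All 4 -KTS KO libraries lay above all 4 WT libraries, and the +KTS KO libraries, at 34.0, 34.98, 17.5 and 26.4 CPM, overlapped WT. The difference from WT was 0.96 ± 0.16 (edgeR adjusted p = 0.0415). Acy1, which encodes an aminoacylase, fell by 0.59 ± 0.11 on the log2 scale (adjusted p = 0.0495), from 25.2 to 27.8 CPM in the 4 WT libraries to 14.5, 14.3, 19.7 and 22.7 CPM. Sult4a1 and Halr1, which reached the threshold too and like other genes outside that rule were chosen with their values known, were higher by 0.98 ± 0.17 and 1.99 ± 0.32 (adjusted p = 0.0495 and 0.0356). Without the barcodes with the highest doublet scores 8 genes were called, 7 higher and 1 lower, of which 3 were among the 46. After subtraction of other cells' RNA 3 were called, all higher, of which 1 was among the 46. The calls of Aurkc, Acy1, Sult4a1 and Halr1 were lost in both and when any of the 8 compared libraries was left out. Leaving out 1 of these 8 libraries gave 9 (without XX -KTS KO replicate 2) to 24 calls.

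The other 42 genes of that comparison had a higher mean in the other kept cells. Cst9, a Sertoli cell gene, was at 41.6 and 57.8 CPM in the germ cells of XY WT, at 0.677 and 1.41 CPM in XX WT and at 0.215 CPM or less in the 4 -KTS KO libraries (adjusted p = 0.00416), and it averaged 69.6 CPM in the other cells. Within XY embryos, 45 genes differed between -KTS KO and WT (0.303% of all tested), 41 of them lower, and 14 between +KTS KO and WT (0.0942%), 13 of them lower. These within-sex comparisons were added after the data had been seen. Amh, the Sertoli cell hormone, was at 23.1 and 8.90 CPM in XY WT germ cells and at 0 and 0.0463 CPM in XY -KTS KO (adjusted p = 0.0048), and Dhh, a Sertoli cell ligand, at 8.59 and 4.44 CPM in XY WT, against 0.0862 and 0.0463 CPM for XY -KTS KO (adjusted p = 0.00407). The lower genes thus included markers of Sertoli cells. The calls of Amh and Dhh were lost without either XY -KTS KO library. Over all alternatives the differences were -11.7 to -5.31 for Amh and -7.00 to -3.20 for Dhh. Without the doublet barcodes none of the 45 was called, and the differences stayed negative, at -6.40 for Cst9, -5.31 for Amh and -3.20 for Dhh (adjusted p = 0.185, 0.346 and 0.352). The subtraction left too few UMIs of these genes for a test, and the 7 genes then called were all higher, 1 of them among the 45. In XY +KTS KO 0 genes were called by edgeR without the doublet barcodes and 8 after the subtraction, all higher, 1 of them among the 14. The part of other cells' RNA in these calls was not tested.

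A single germ-enriched gene was called in each XY comparison (0.0146% of such genes), both chosen after their values were seen. Aqp3, a channel for water and glycerol, was at 0.778 and 1.15 CPM in XY WT, against 5.95 and 8.43 CPM for XY -KTS KO, a difference of 2.88 ± 0.48 (edgeR adjusted p = 0.0396). Kcnip3, which encodes a calcium-binding protein, was at 1.84 and 1.94 CPM in XY WT, against 7.72 and 7.58 CPM for XY +KTS KO, a difference of 2.01 ± 0.30 (adjusted p = 0.0389). Lefty2 in XY germ cells was at 127 and 104 CPM in WT, 51.5 and 56.3 CPM in -KTS KO and 77.6 and 149 CPM in +KTS KO. Both calls were lost without the doublet barcodes, after the subtraction and when any of the 4 compared libraries was left out, and also without single XX libraries, with differences without a compared library of 2.61 to 3.20 for Aqp3 and 1.97 to 2.05 for Kcnip3. The XY differences of Lefty2 from WT, -1.10 ± 0.27 and -0.03 ± 0.27 (adjusted p = 0.151 and 0.992), did not pass the test.

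XX germ cells of both mutants held more RNA of Lefty1 and Lefty2 than XX WT germ cells. In XX WT germ cells Lefty2 was at 5.6 and 8.27 CPM and in XY WT at 127 and 104 CPM. In the mutants XX germ cells held Lefty2 at 63.7 and 63.0 CPM (-KTS KO) and at 117 and 111 CPM (+KTS KO). The XX libraries of both mutants lay above both XX WT libraries, the +KTS KO ones within the range of the 2 XY WT libraries and the -KTS KO ones below it. Against XX WT the difference was 3.20 ± 0.30 in XX -KTS KO (edgeR adjusted p = 0.00607) and 4.04 ± 0.31 in XX +KTS KO (adjusted p = 0.000777). In the other kept cells Lefty2 averaged 0.368 CPM. The 10 blood markers, none of them called, had medians of the same sign, at 1.42 and 1.97 in the XX mutants against XX WT and -2.36 between XX and XY WT. Their sums in XX -KTS KO replicate 1 and XX +KTS KO replicate 2, at 120 and 124 CPM, were below those of both XX WT libraries, and in the other XX mutant libraries, at 3077 and 5639 CPM, above them.

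Lefty1 had its lowest levels in XX WT as well. Lefty1 was at 5.97 and 5.86 CPM in XX WT, 98.0 and 57.2 CPM for XY WT, 59.8 and 80.9 CPM for XX -KTS KO, and 75.8 and 78.9 CPM for XX +KTS KO. It was higher in each XX mutant library than in either XX WT library. The differences from XX WT were 3.57 ± 0.43 and 3.71 ± 0.43 (edgeR adjusted p = 0.0179 in -KTS KO and 0.00897 in +KTS KO).

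In the XY mutants Lefty1 was at 60.4 and 32.9 CPM (-KTS KO) and at 36.7 and 82.4 CPM (+KTS KO), and Lefty2 at 51.5 and 56.3 CPM (-KTS KO) and at 77.6 and 149 CPM (+KTS KO). These levels overlapped those of XY WT, except that Lefty2 was lower in both XY -KTS KO libraries than in either XY WT library, with a difference of -1.10 ± 0.27 that did not pass the test (edgeR adjusted p = 0.151).

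**Figure D2:**
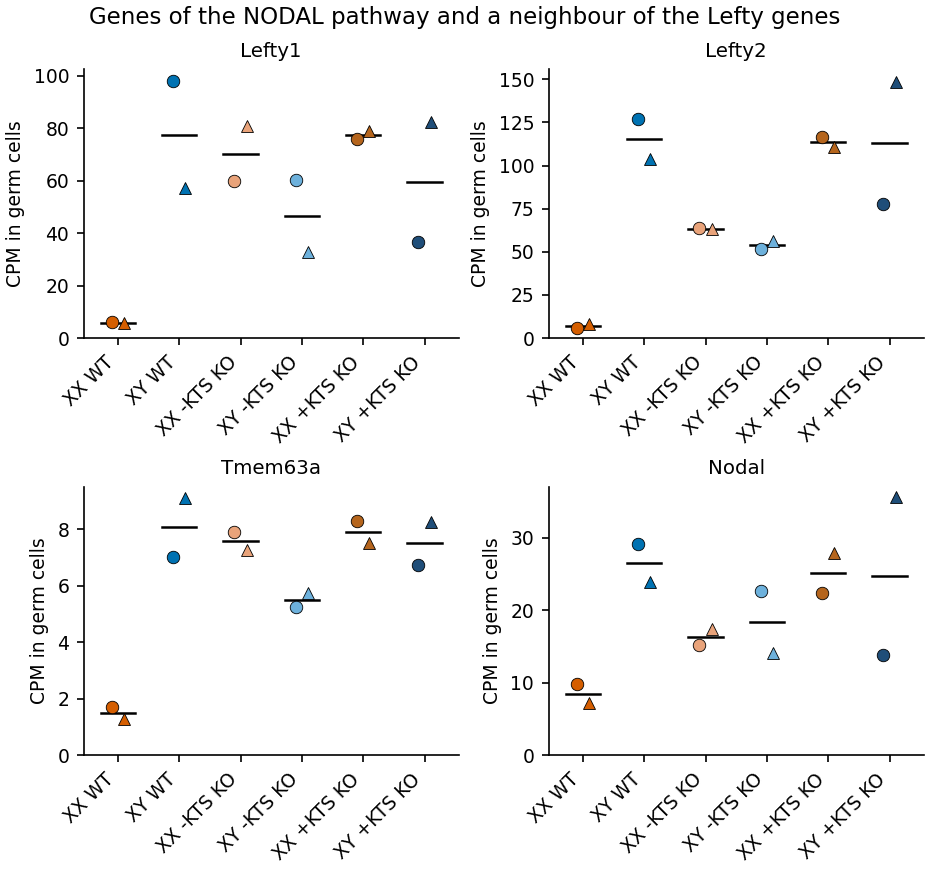
Levels of Lefty1, Lefty2, Tmem63a and Nodal in the germ cells of each library, in CPM, by group; circles are replicate 1, triangles replicate 2 and bars group means. For Lefty2 the XX WT libraries sit at 5.6 and 8.27 CPM and all 10 other libraries at 51.5 CPM or more.

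The sex difference of these genes in WT germ cells was therefore tested against that in the mutants. XX minus XY was -4.06 ± 0.31 for Lefty2 and -3.71 ± 0.43 for Lefty1 in WT (edgeR adjusted p = 0.000186 and 0.00259). For Lefty2 it was 0.23 ± 0.27 in -KTS KO and 0.01 ± 0.27 in +KTS KO. The interaction, which is the sex difference in the mutant minus that in WT, was 4.30 ± 0.40 for Lefty2 and 4.30 ± 0.57 for Lefty1 in -KTS KO (adjusted p = 0.0061 and 0.0293). In +KTS KO it was 4.08 ± 0.40 and 4.10 ± 0.57 (adjusted p = 0.00967 and 0.0397). The interaction passed the test in 8 genes for -KTS KO (0.0538% of all tested) and in 9 for +KTS KO (0.0605%). Of these, 4 and 5 were germ-enriched (0.0584% and 0.0731%), among them Lefty1, Lefty2 and Tmem63a in both, and Slc22a18 in +KTS KO. The comparisons of the 2 mutants share the WT libraries.

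These calls rested on few libraries. XX -KTS KO against XX WT gave 7 calls (0.0471% of all tested, and 4 or 0.0584% of the germ-enriched genes), which became 0 without XX WT replicate 1 or without XX -KTS KO replicate 2, and 2 without XX -KTS KO replicate 1. XX +KTS KO against XX WT gave 7 calls as well (0.0471%, and 6 or 0.0877% of the germ-enriched genes), which became 1 without XX WT replicate 1 and 2 without XX +KTS KO replicate 1. Lefty2 in XX +KTS KO kept its call under every alternative tried. Without XX WT replicate 1 the difference of Lefty2 in XX -KTS KO was 2.94 (edgeR adjusted p = 0.152). Without XX -KTS KO replicate 2 the difference of Lefty2 was 3.22 (adjusted p = 0.0545). The direction did not turn in any of these fits. Lefty1 lost its call in XX -KTS KO when any of the 4 compared libraries was left out, with differences of 3.35 to 3.78, and in XX +KTS KO without either XX WT library or XX +KTS KO replicate 1, with differences of 3.69 to 3.73. The Lefty1 interaction lost its call without 7 of the 8 compared libraries in -KTS KO and 6 of 8 in +KTS KO, with values of 3.65 to 4.83 over all alternatives. That of Tmem63a lost it without 7 of 8 in each mutant, with values of 2.30 to 3.12. Without XX -KTS KO replicate 2 the -KTS KO interaction was called in 3 genes, with Lefty2 at 4.32 (adjusted p = 0.0359), Lefty1 at 4.09 (0.123) and Tmem63a at 2.95 (0.0927). The interaction calls fell to 0 without XX WT replicate 1 in both mutants, and without XY WT replicate 1 in +KTS KO.

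To see whether many or few cells carried these RNAs, every cell was thinned to 10000 UMIs. The share with a UMI of Lefty1 or Lefty2 was then counted. Shares of different genes come from separate random draws. Thinning left out 624 shallower germ cells (4 to 248 per library) and 20322 other kept cells (545 to 3593 per library). In XX WT it was 9.06% and 13.6% of the germ cells, and in XY WT 83.3% and 70.4%. It was 62.9% and 62.6% for XX -KTS KO, against 76.9% and 83.4% for XX +KTS KO. In XY mutant germ cells it was 54.3% and 46.5% (-KTS KO) and 64.9% and 78.1% (+KTS KO). Most germ cells of every mutant library except XY -KTS KO replicate 2 thus held such a UMI, and few XX WT germ cells did. In the other kept cells deep enough for thinning the share was 0.624% to 1.68%, which sets the background. Without thinning the XX WT shares were 20.4% and 28.6%.

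**Figure D3:**
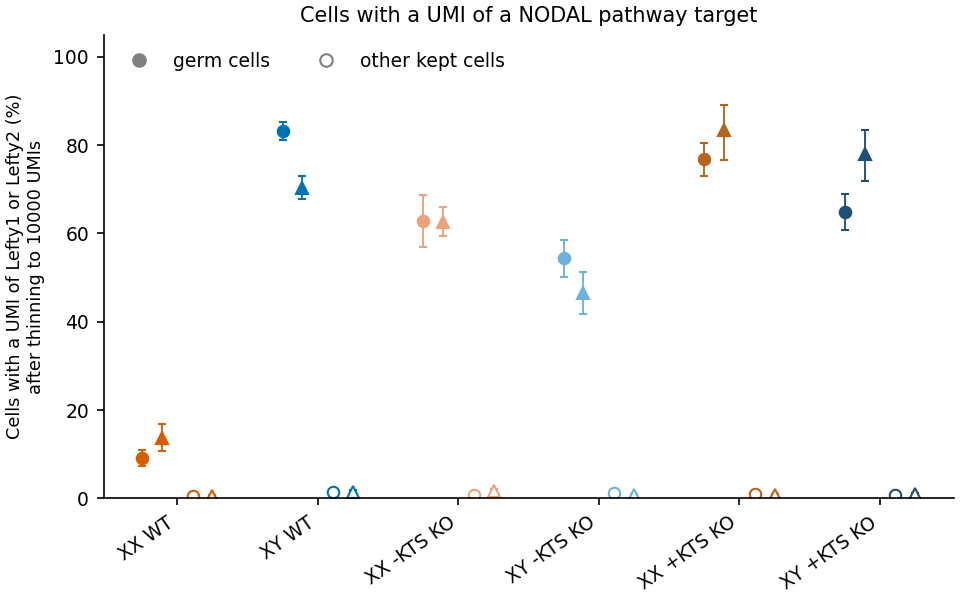
Share of germ cells (filled) and of other kept cells (open) with at least 1 UMI of Lefty1 or Lefty2 after thinning to 10000 UMIs, in percent, by library; circles are replicate 1, triangles replicate 2, and bars exact 95% binomial intervals. XX WT germ cells sit at 9.06% and 13.6%, and germ cells of the other 10 libraries between 46.5% and 83.4%.

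Nodal, the gene of the ligand, was at 9.85 and 7.18 CPM in XX WT, 29.0 and 23.8 CPM for XY WT, 15.2 and 17.4 CPM for XX -KTS KO, 22.7 and 14.1 CPM for XY -KTS KO, 22.4 and 27.9 CPM for XX +KTS KO, and 13.8 and 35.6 CPM for XY +KTS KO. Both XX WT libraries were below all others. The differences from XX WT, 0.93 ± 0.38 and 1.55 ± 0.39, did not pass the test (edgeR adjusted p = 0.477 and 0.399), nor did the sex difference in WT of -1.63 ± 0.38 (adjusted p = 0.0764). Tdgf1 was at 2.46 and 10.0 CPM in XX WT, against 19.4 and 12.2 CPM for XY WT, with mutant libraries from 1.56 to 20.1 CPM. Of the 13 tested genes described of the male germ cell programme, 2 rose in XX -KTS KO and 2 in XX +KTS KO, in both cases Lefty1 and Lefty2, where 0.0471% of all genes were called in each comparison. The median over the 13 was 0.17 and 0.44. Nanos2 and Dnmt3l, later genes of the male programme, were at 0.05 CPM or less in every library.

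Lefty1 and Lefty2 are neighbours, and Tmem63a lies beside them. In mm10, with GENCODE M21 gene bounds, Lefty2 spans chr1:180893108-180899103, Lefty1 chr1:180935022-180938400 and Tmem63a chr1:180942344-180975112, all on the plus strand. Tmem63a, which encodes a membrane channel protein and was chosen after its values were seen, was at 1.72 and 1.27 CPM in XX WT, against 7.0 and 9.12 CPM for XY WT. In the mutants it was at 7.92 and 7.25 CPM (XX -KTS KO), 5.26 and 5.75 CPM (XY -KTS KO), 8.30 and 7.51 CPM (XX +KTS KO), and 6.72 and 8.27 CPM (XY +KTS KO). It rose against XX WT by 2.32 ± 0.25 in XX -KTS KO and 2.39 ± 0.26 in XX +KTS KO (edgeR adjusted p = 0.0101 and 0.00785), calls lost without any of the 4 compared libraries in -KTS KO and without 3 of 4 in +KTS KO. Within 100000 bases of the Lefty genes 8 of 9 annotated genes were tested and 3 were called in XX minus XY of WT and in each XX mutant against XX WT. Sde2, the next gene on one side, stayed between 85.5 and 124 CPM in all libraries.

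The promoter of Tmem63a, from 250 bases before to 50 after the RefSeq start (GRCm38.p6, chr1:180942268-180942567, plus strand), is shown because the gene moved with its neighbours. Capitals mark CAGAC or its complement GTCTG, a short element that SMAD proteins, the mediators of NODAL and BMP signals, can bind.
Tmem63a: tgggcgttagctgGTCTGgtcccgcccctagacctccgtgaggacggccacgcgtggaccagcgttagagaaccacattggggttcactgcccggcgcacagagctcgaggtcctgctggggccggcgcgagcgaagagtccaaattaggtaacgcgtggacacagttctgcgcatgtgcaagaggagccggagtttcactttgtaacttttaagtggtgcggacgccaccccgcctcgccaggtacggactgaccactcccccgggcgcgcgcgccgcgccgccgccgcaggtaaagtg
It holds 1 such element, on either strand counted, as 49.6% of the 32851 promoters in the table hold at least 1, and 33 CG dinucleotides against a median of 7. It holds no AATNCACA, a motif bound by FOXH1 and found in 3.60% of promoters. The promoters of Lefty1 and Lefty2 were not used here.

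Further genes were called in XX germ cells. Wnt3, which encodes a secreted WNT ligand and was chosen after its values were seen, was at 1.38 and 2.04 CPM in XX WT, 8.21 and 8.54 CPM for XY WT, 5.15 and 4.55 CPM for XX -KTS KO, and 10.6 and 8.69 CPM for XX +KTS KO. Against XX WT it rose by 2.51 ± 0.28 in XX +KTS KO (edgeR adjusted p = 0.00793), and the 1.51 ± 0.27 of XX -KTS KO did not pass (adjusted p = 0.168). AU015836, chosen in the same way, went the other way, from 22.1 and 17.4 CPM in XX WT to 3.40 and 4.51 CPM in XX +KTS KO (-2.35 ± 0.28, adjusted p = 0.00949), with 5.71 and 7.32 CPM for XX -KTS KO, against 3.80 and 5.5 CPM for XY WT. Pmepa1, which encodes an inhibitor of TGF-beta signalling, was called in both XX mutants (2.04 ± 0.27 and 2.40 ± 0.27, adjusted p = 0.0274 and 0.00822), was chosen after its values were seen and had a higher mean in the other cells (52.8 CPM) than in germ cells. Ecm1 and Capn6, called in XX -KTS KO too, were likewise higher in the other cells.

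Over both sexes, 6 genes differed between +KTS KO and WT germ cells (0.0404% of all tested), 3 higher and 3 lower, and 4 of them were germ-enriched (0.0584%). Among these Lefty2 was higher by 2.01 ± 0.20 and Wnt3 by 1.62 ± 0.19, and AU015836 fell by 1.49 ± 0.20 (edgeR adjusted p = 0.00582, 0.0115 and 0.0304). For Lefty2 the difference from WT was 4.04 ± 0.31 in XX and -0.03 ± 0.27 in XY germ cells. Without XX WT replicate 1 that over both sexes was 1.87 (adjusted p = 0.0508). The call of Wnt3 was lost without 4 of the 8 compared libraries and that of AU015836 without 7. Tesc and Jmjd7, which also passed the test, were lower and had a higher mean in the other cells, and both lost their call without the doublet barcodes. After subtraction of other cells' RNA the difference of Tesc turned from -2.09 to 4.18 (adjusted p = 0.0114).

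Genes that were high in XX WT germ cells were then followed in the mutants. In WT, 124 autosomal genes differed between XX and XY germ cells (0.868% of 14282), 27 higher and 97 lower in XX, and 47 of them were germ-enriched (0.714% of 6580), 26 higher and 21 lower. After subtraction of other cells' RNA 31 were higher and 32 lower in XX, and without the doublet barcodes 30 and 49. The 124 became 8 without XX WT replicate 1, 46 without XX WT replicate 2, 25 without XY WT replicate 1 and 42 without XY WT replicate 2. Phlda2, an imprinted gene of growth control, was at 637 and 365 CPM in XX WT, against 35.1 and 46.9 CPM for XY WT, a difference of 3.61 ± 0.45 (edgeR adjusted p = 0.00381). It was at 79.2 and 150 CPM in XX -KTS KO, 138 and 84.1 CPM for XY -KTS KO, 76.1 and 143 CPM for XX +KTS KO, and 64.3 and 98.7 CPM for XY +KTS KO. The 8 mutant libraries of both sexes thus lay between XY WT and XX WT. The differences of XX -KTS KO and XX +KTS KO from XX WT, -2.12 ± 0.43 and -2.20 ± 0.43, did not pass the test (adjusted p = 0.203 and 0.239).

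Slc22a18, a transporter gene beside Phlda2, was at 24.6 and 15.5 CPM in XX WT, 2.07 and 2.49 CPM for XY WT, 2.52 and 5.6 CPM for XX -KTS KO, 4.87 and 4.91 CPM for XY -KTS KO, 4.67 and 4.29 CPM for XX +KTS KO, and 5.42 and 7.70 CPM for XY +KTS KO. Its sex difference of 3.13 ± 0.37 in WT (edgeR adjusted p = 0.00265) differed from that in +KTS KO by the interaction test (-3.65 ± 0.52, adjusted p = 0.0407), a call lost when any of the 8 compared libraries was left out, and the interaction of -3.36 ± 0.51 in -KTS KO did not pass (adjusted p = 0.0626). In mm10 Slc22a18 spans chr7:143473736-143499334 on the plus strand and Phlda2 chr7:143501545-143503150 on the minus strand. Of the 8 genes annotated within 100000 bases of the pair, 5 were tested, and Phlda2 and Slc22a18 were the 2 called in WT.

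Their RefSeq promoters (GRCm38.p6) are shown as those of neighbours that were both higher in XX WT, with CAGAC or GTCTG in capitals. They are chr7:143502475-143502774, minus strand, for Phlda2 and chr7:143473539-143473838, plus strand, for Slc22a18.
Phlda2: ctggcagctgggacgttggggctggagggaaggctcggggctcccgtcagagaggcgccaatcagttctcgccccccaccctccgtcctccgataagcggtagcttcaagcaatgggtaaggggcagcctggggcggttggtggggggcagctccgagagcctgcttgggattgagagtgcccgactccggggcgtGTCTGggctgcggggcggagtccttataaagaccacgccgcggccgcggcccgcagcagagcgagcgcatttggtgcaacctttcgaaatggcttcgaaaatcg
Slc22a18: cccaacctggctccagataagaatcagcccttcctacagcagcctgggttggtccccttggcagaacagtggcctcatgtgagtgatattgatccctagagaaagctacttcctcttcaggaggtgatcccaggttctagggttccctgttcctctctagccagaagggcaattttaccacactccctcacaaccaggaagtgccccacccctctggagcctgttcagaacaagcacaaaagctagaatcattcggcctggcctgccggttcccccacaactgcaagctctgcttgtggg
That of Phlda2 holds 26 CG dinucleotides and 1 GGCGCC, a motif of BMP-responsive SMAD proteins found in 11.9% of promoters, and that of Slc22a18 holds 2 CG dinucleotides and neither motif.

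Gata2, Msx2, Zglp1 and Id1, which are known to respond to BMP, were higher in XX than in XY WT germ cells. Gata2, a transcription factor gene induced by BMP, was at 47.2 and 30.6 CPM in XX WT, 3.34 and 7.64 CPM for XY WT, 6.01 and 13.5 CPM for XX -KTS KO, and 14.6 and 8.91 CPM for XX +KTS KO. Its sex difference in WT was 2.82 ± 0.46 (edgeR adjusted p = 0.0204), and its difference of -1.97 ± 0.45 between XX -KTS KO and XX WT did not pass (adjusted p = 0.234). Msx2, a homeobox gene, was at 60.4 and 38.0 CPM in XX WT, 11.4 and 16.9 CPM for XY WT, 27.5 and 22.2 CPM for XX -KTS KO, and 18.8 and 21.6 CPM for XX +KTS KO. The XX mutant libraries of both genes lay below the XX WT libraries. They lay above both XY WT libraries, except that XX -KTS KO overlapped XY WT for Gata2. In the XY mutants Gata2 averaged 9.17 CPM (-KTS KO) and 15.3 CPM (+KTS KO), against 5.49 CPM in XY WT. Msx2 averaged 29.5 and 26.8 CPM there, against 14.1 CPM in XY WT. Except for Gata2 in -KTS KO, these XY means were above those of the XX mutants of the same genotype.

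Zglp1, a regulator of the oogenic fate, was at 73.7 and 47.8 CPM in XX WT, 15.6 and 19.96 CPM for XY WT, 15.9 and 13.3 CPM for XX -KTS KO, and 25.1 and 21.6 CPM for XX +KTS KO. XX -KTS KO overlapped XY WT. In XY -KTS KO Zglp1 was at 12.5 and 14.9 CPM, below both XY WT libraries, and in XY +KTS KO at 48.5 and 23.2 CPM, above both. Id1, a general target of BMP, was at 123 and 141 CPM in XX WT, 25.6 and 30.9 CPM for XY WT, 51.9 and 21.7 CPM for XX -KTS KO, 43.6 and 23.8 CPM for XX +KTS KO, and 101 and 54.0 CPM for XY +KTS KO, and had a higher mean in the other cells. The XX mutant libraries overlapped XY WT for Id1. The sex differences in WT were 1.80 ± 0.30, 1.77 ± 0.32 and 2.22 ± 0.42 for Msx2, Zglp1 and Id1 (edgeR adjusted p = 0.0209, 0.0288 and 0.0331).

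Of the 17 BMP and WNT targets, those 4 were the ones called between XX and XY WT (0.868% of autosomal genes were called), all higher in XX. The median was 0.92 over the list against 0.01 over all genes. None of the 17 was called in XX -KTS KO or XX +KTS KO against XX WT, where 0.0471% of all genes were called in each. In each of these comparisons 2 of 17 were positive, and the medians were -0.88 and -0.65. In XY +KTS KO against XY WT 14 of 17 were positive, with a median of 0.51 and no call (0.0942% of all genes were called). Without TMM scaling the list summed to 500 and 521 CPM in XY WT. It summed to 716 and 645 CPM in XY -KTS KO, and to 817 and 636 CPM in XY +KTS KO. XX WT was at 1002 and 992 CPM, XX -KTS KO at 716 and 563 CPM, and XX +KTS KO at 645 and 604 CPM. Lists share the library sums, so these medians and sums are a description. Among the pluripotency genes Lin28a, an RNA-binding protein gene, was higher (1.21 ± 0.18, edgeR adjusted p = 0.012) and Otx2, a transcription factor gene, lower (-2.66 ± 0.49, adjusted p = 0.0312) in XX than in XY WT. Lin28a was at 42.3 and 42.3 CPM in XX WT, 17.5 and 19.07 CPM for XY WT and 18.3 to 37.7 CPM in the mutants.

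**Figure D4:**
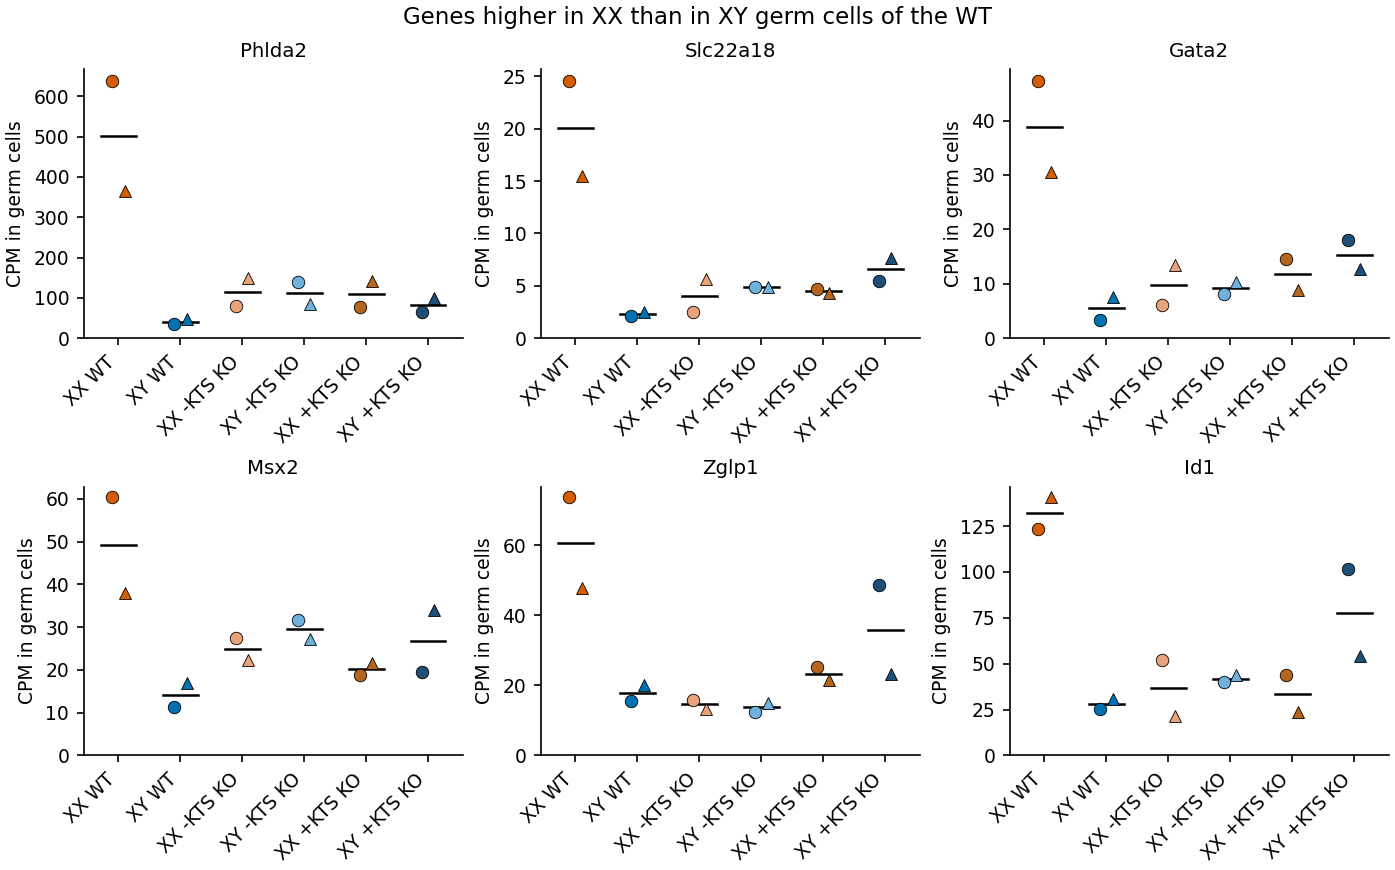
Levels of Phlda2, Slc22a18, Gata2, Msx2, Zglp1 and Id1 in the germ cells of each library, in CPM, by group; circles are replicate 1, triangles replicate 2 and bars group means. Phlda2 sits at 637 and 365 CPM in XX WT and between 64.3 and 150 CPM in the 8 mutant libraries.

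The cells showed the same intermediate place of Phlda2. After thinning to 10000 UMIs, 96.0% and 91.2% of XX WT germ cells and 23.3% and 31.4% of XY WT germ cells held a Phlda2 UMI. In the 8 mutant libraries the share was 39.3% to 58.9%, and in the other kept cells 1.17% to 4.54%.

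Genes of the entry into meiosis gave no call between a mutant and WT. Stra8, the retinoic acid target that opens meiosis, was at 0.0288 to 0.215 CPM in the WT libraries and at 0 to 1.04 CPM in 7 of the 8 mutant libraries, and reached 5.51 CPM in XY -KTS KO replicate 2. Its difference between -KTS KO and WT did not pass the test (edgeR adjusted p = 0.16). Rec8, a meiotic cohesin gene, lay between 1.03 and 3.12 CPM and Sycp3, a gene of the chromosome axis, between 23.7 and 48.7 CPM. Of 25 tested genes of the entry into meiosis none was called in either mutant over both sexes, with medians of 0.10 and 0.24. Of all genes 0.309% (-KTS KO) and 0.0404% (+KTS KO) were called, so few calls would fall to a list of this size. The 3 called between XX and XY WT were Zglp1, Msx2 and Gata2 (0.868% of autosomal genes were called).

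Among germ cells of the mutants, few autosomal genes were called between XX and XY. In -KTS KO 0 autosomal genes differed between XX and XY by edgeR (0%), and DESeq2 called 1. In +KTS KO 1 autosomal gene differed by edgeR (0.007%), Arf5, which had a higher mean in the other cells, and DESeq2 called 6. Of all 14865 genes tested, on any chromosome, 423 (-KTS KO) and 534 (+KTS KO) had an unadjusted edgeR p under 0.05, against 1904 in WT. Both mutant counts are below a share of 0.05, so missing calls are weak evidence that a sex difference is absent. The WT values chose the 47 germ-enriched genes, so their sex difference there is a description. The 26 genes higher in XX WT had a median of 1.79 in WT, 0.12 in -KTS KO and -0.17 in +KTS KO, and 20 and 10 of the 26 kept the WT sign. The 21 genes higher in XY WT had medians of -2.34, 0.01 and -0.16, and 10 and 12 of 21 kept the sign. The median differences between XX and XY were thus near 0 in the mutants for both sets. The interaction, which holds the same WT values, was called in 0 (-KTS KO) and 1 (+KTS KO) of the 26 genes. It was called in 4 of the 21 genes in each mutant. For the other genes a change of the sex difference was not shown.

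Levels relative to WT of the same sex moved in both directions. The 26 genes had medians of -0.95 and -0.99 in XX -KTS KO and XX +KTS KO against XX WT and of 0.65 and 0.85 in the XY mutants against XY WT. The 21 genes had medians of 1.51 and 1.75 in XX and of -0.83 and -0.32 in XY. The WT libraries chose these genes and also stand on one side of each of these differences, which pulls such medians toward this pattern, so they are given as a description.

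**Figure D5:**
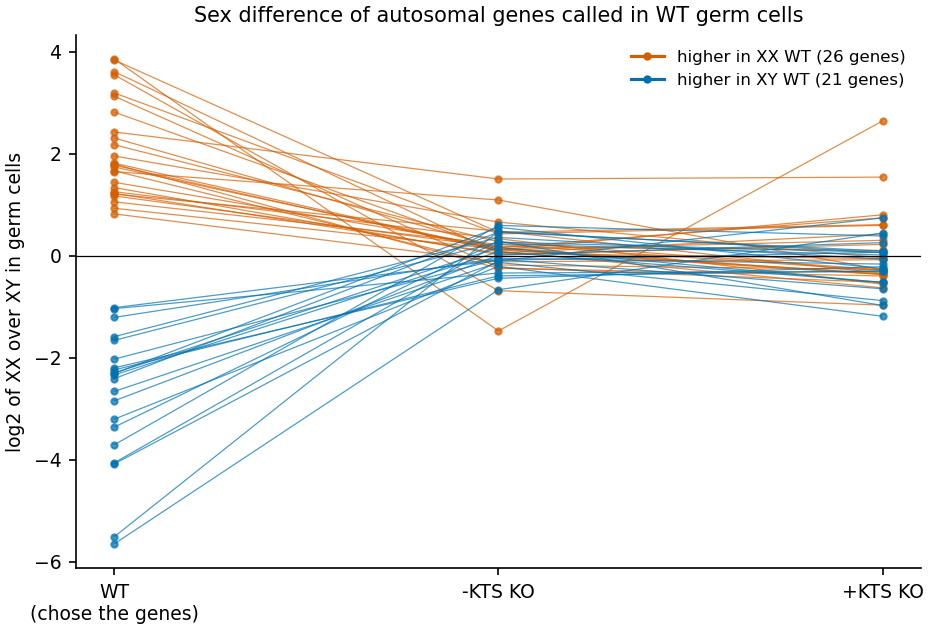
log2 of XX over XY in germ cells of WT, -KTS KO and +KTS KO for the 47 autosomal germ-enriched genes that differed in WT, 1 line per gene. The 26 genes higher in XX WT have medians of 1.79, 0.12 and -0.17, and the 21 genes higher in XY WT of -2.34, 0.01 and -0.16.

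Y-linked genes other than Gm47283 followed the chromosomal sex of the libraries. The Y-linked genes Eif2s3y (91.6 to 133 CPM), Uba1y (17.9 to 40.7 CPM) and Ddx3y (12.8 to 16.7 CPM) were present in the 6 XY libraries and at 0 CPM in XX germ cells. Gm47283, annotated on the Y chromosome and chosen after its values were seen, was present in all 12 libraries, at 43.8 to 339.5 CPM in XY and 69.5 to 542 CPM in XX germ cells, without TMM scaling. All other Y-linked genes together held 0 to 4 UMIs in the XX libraries and 1760 to 7647 in the XY libraries. The 6 genes called between XX and XY in -KTS KO were all Y-linked. Of 160 X-linked genes with a mean of at least 20 CPM, 139 were higher in XX than XY germ cells of WT, 140 in -KTS KO and 140 in +KTS KO, with medians of 0.50, 0.36 and 0.41, where 4975 autosomal genes had medians of 0.04, -0.03 and -0.01. X-linked genes took 3.43% to 3.55% of the UMIs in XX germ cells and 2.42% to 2.68% in XY germ cells. Xist, the RNA of X inactivation, was at 23.1 to 66.7 CPM in XX germ cells, far below the 511 to 725 CPM of the other XX cells of the same libraries. The higher X-linked output of XX germ cells was present in WT and in both mutants.

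When the mutants were compared with each other, 190 genes differed (1.28% of all tested), 94 higher and 96 lower in -KTS KO, and 47 were germ-enriched (0.687%), 38 higher and 9 lower. The 190 became 24 without XX -KTS KO replicate 2, 44 without XX -KTS KO replicate 1, 37 without the doublet barcodes and 7 after subtraction of other cells' RNA. Rhox4c, a homeobox gene of an X-linked reproductive cluster, was at 27.5 and 20.5 CPM in XX -KTS KO, 31.2 and 23.5 CPM for XY -KTS KO, 5.94 and 11.8 CPM for XX +KTS KO, and 2.78 and 5.97 CPM for XY +KTS KO. The 2 genotypes did not overlap, and WT, at 10.2, 10.6, 18.6 and 12.4 CPM, lay between their means. The difference was 2.10 ± 0.28 (edgeR adjusted p = 0.00808) and passed under every alternative tried. Rhox4 genes are near-identical copies whose reads cannot be assigned with certainty.

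Eif3j1 and Eif3j2, near-identical genes of a translation initiation factor, moved in opposite directions. Eif3j1 was at 144, 132, 82.9 and 158 CPM in -KTS KO and 42.9, 51.0, 61.2 and 49.2 CPM in +KTS KO. Eif3j2 was at 3.13, 9.68, 3.23 and 2.78 CPM in -KTS KO and 44.8, 51.4, 51.9 and 45.03 CPM in +KTS KO, and in WT at 18.4, 2.41, 2.48 and 22.3 CPM. WT libraries of the same sex thus lay far apart for Eif3j2. The differences were 1.34 ± 0.26 and -3.43 ± 0.70 (edgeR adjusted p = 0.0364 and 0.0447), and how their shared reads were assigned was not tested. Both calls were lost without XX -KTS KO replicate 2, as were those of Cyct, Lgals9, Sipa1l1, Sp5 and Lefty2 given next. The calls of Eif3j1 and Eif3j2 were each lost under 10 of 16 alternatives, that of Cyct under 11, Lgals9 under 9, Sp5 under 7 and Sipa1l1 under 4. The subtraction ended all 6, and removal of the doublet barcodes the first 4.

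Cyct, the testis cytochrome c gene, was uneven in WT too, at 159, 56.3, 135 and 44.4 CPM, but its higher XY library was not that of Eif3j2. It was at 50.8, 39.99, 48.5 and 57.0 CPM in -KTS KO and 196, 193, 111 and 204 CPM in +KTS KO (-1.84 ± 0.38, edgeR adjusted p = 0.0452). Lgals9, a galectin gene, and Sipa1l1, a signalling gene, were higher in -KTS KO by 1.14 ± 0.24 and 0.92 ± 0.14 (adjusted p = 0.0458 and 0.0146). Kcnip3, at 2.39, 2.09, 2.50 and 3.57 CPM in -KTS KO and 7.88, 7.08, 7.72 and 7.58 CPM in +KTS KO, was lower in -KTS KO (-1.54 ± 0.21, adjusted p = 0.00861), and its difference was -1.49 without XX -KTS KO replicate 2 (adjusted p = 0.071). Lefty2 was lower in -KTS KO than in +KTS KO (-0.96 ± 0.19, adjusted p = 0.0426), a call lost under 9 of 16 alternatives, with differences of -1.16 to -0.68. Sp5, a WNT target, was lower in -KTS KO (-3.38 ± 0.54, adjusted p = 0.0186), at 1.78, 1.62, 0.819 and 0.973 CPM, and had a higher mean in the other cells.

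Supporting cell genes were among the calls of this comparison too. Of the 16 supporting cell markers 4 were lower in -KTS KO than in +KTS KO germ cell sums, Amh, Cst9, Foxl2 and Wnt6 (1.28% of all genes were called), each with a higher mean in the other cells. Wnt6, which encodes a WNT ligand, was at 5.52, 5.68, 9.61 and 3.01 CPM in -KTS KO and 42.6, 13.95, 46.8 and 25.5 CPM in +KTS KO (edgeR adjusted p = 0.0318), averaged 255 CPM in the other cells and turned direction, to 0.41, after the subtraction. All 4 calls were lost without XX -KTS KO replicate 2, at -2.44 for Wnt6, -4.32 for Amh, -3.63 for Cst9 and -6.68 for Foxl2 (adjusted p = 0.135, 0.124, 0.195 and 0.0899).

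The remaining lists held few calls. Of 31 tested imprinted genes none was called in either mutant against WT, with medians of -0.24 and -0.22. Of all genes 0.309% (-KTS KO) and 0.0404% (+KTS KO) were called, so few calls would fall to lists of this size. Igf2, an imprinted growth factor gene, was at 7.69 to 49.4 CPM in germ cells and averaged 294 CPM in the other cells. At these shares, several more lists held no call in either mutant against WT. These were 9 genes of DNA methylation, 12 of the retinoic acid response and 25 receptors for signals of the soma. The same held for 41 genes of S phase, 53 of G2 and M phase and 19 of cell death. It held too for 20 genes of the respiratory chain and 15 immediate early genes. The medians of these lists lay between -0.19 and 0.28. Among 16 glycolysis genes none was called, and 15 of 16 were positive in -KTS KO against +KTS KO, with a median of 0.35.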

How the data were processed

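The deposited files hold UMI counts per gene and cell barcode (32285 genes), which the authors made with Cell Ranger 6.0, per the processing notes, on mm10, without normalization. Filters, germ cells and sums per library were computed from these counts with Python 3.11.15, numpy 2.4.6, scipy 1.17.1, pandas 2.3.3 and scanpy 1.11.5, which kept 83513 of 103730 barcodes; 0 columns lacked a matching sample. The members, gene lists and tests were chosen with earlier results of these data known. Replicate libraries came from separate embryos, or from pools of embryos in most of -KTS KO.

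Sums over germ cells were compared with edgeR 4.0.16 (R 4.3.3, limma 3.58.1), using TMM factors, the filterByExpr filter, 6 groups and the quasi-likelihood test, p-values adjusted after Benjamini and Hochberg across the genes of the fit, and a threshold of 0.05. Contrasts were each mutant against WT and the mutants against each other (averaged over the sexes), XX against XY in each genotype and the 2 interactions. The 4 comparisons within a sex were added after the data were seen. Shares of germ cells were compared by two-sided exact permutation tests over libraries. The germ cell sums of 9507996 to 44201419 UMIs per library set the precision. The model was also run on simulated counts with known changes, and the outcome is not given here.

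Genes were named by a rule: the 5 genes that chose the cells; a set of germ cell genes whatever their test; members of the gene lists that passed the test; and per comparison the 5 largest rises and 5 largest falls among called, germ-enriched genes whose libraries did not overlap and that reached a mean of 20 CPM in the higher group. Doublets were left in, and the alternative removed the barcodes with the highest Scrublet scores, 0.8% of barcodes for each 1000 in the library. This removed 8.88% and 13.1% of the germ cells in XX WT and 21.3% and 21.8% in XY WT. In the mutant libraries it removed 7.39% to 22.2%. Another alternative subtracted other cells' RNA in the proportion set by the soma markers. Further alternatives were DESeq2 1.42.0, RLE factors, no filter, thresholds of 10 and 40 UMIs, a replicate block and leaving out each library. Gene bounds came from GENCODE M21, which matched 32235 of the features, and promoters from a table of RefSeq promoters, in which 3 of 5 genes looked for were matched. Results of 2 genes are not reported here.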

Additional observations from a re-analysis of the deposited data

Results flagged for a closer look

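The sex difference of germ cells in the mutants minus that in WT passed edgeR's test for several genes named in the report. On the log2 scale it was 4.30 for Lefty1, 4.30 for Lefty2 and 2.87 for Tmem63a in -KTS KO. In +KTS KO it was 4.10 for Lefty1, 4.08 for Lefty2, 2.50 for Tmem63a and -3.65 for Slc22a18. Cst9, a Sertoli cell gene that was higher in the other kept cells than in germ cells, had a value of 6.44 in +KTS KO.

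In 4 of 54 groups of 4 libraries, 1 library lay far from the other 3 for a gene, where chance gives about 1 in 20. Aurkc was at 19.7 CPM in XY WT replicate 2, below the other WT libraries. Cyct was at 110.5 CPM in XY +KTS KO replicate 1, below the other +KTS KO libraries. Eif3j2 was at 9.68 CPM in XX -KTS KO replicate 2, and Ier3, an immediate early gene, at 17.4 CPM in XX +KTS KO replicate 2, each above the other libraries of its genotype.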

How the results depend on the processing

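The shares of germ cells kept their direction under all alternatives. With 1 library left out at a time the differences were -6.23 to -1.77 points (-KTS KO minus WT), -11.4 to -7.28 points (+KTS KO minus WT) and 3.00 to 6.96 points (-KTS KO minus +KTS KO).

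Counts of called genes moved with the tool and the filter, with single libraries, and with the handling of doublets and of other cells' RNA. In the order -KTS KO minus WT, +KTS KO minus WT and -KTS KO minus +KTS KO, DESeq2 called 357, 115 and 434 genes, and edgeR without a filter 960, 529 and 1082. For XX minus XY (autosomal) in WT, -KTS KO and +KTS KO they called 338, 1 and 6, and 1019, 45 and 110. For the interactions in -KTS KO and +KTS KO they called 63 and 64, and 408 and 374. For XX -KTS KO, XX +KTS KO, XY -KTS KO and XY +KTS KO against WT of the same sex they called 119, 48, 220 and 87, and 488, 291, 859 and 562.

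Without the doublet barcodes edgeR called 8 genes in -KTS KO minus WT, 37 in -KTS KO minus +KTS KO, 79 in XX minus XY of WT, 11 in XX -KTS KO minus XX WT, and 0 in each XY mutant minus XY WT. After subtraction of other cells' RNA it called 3, 7 and 63 in the first 3 of these, 17 in the +KTS KO interaction, 7 in XY -KTS KO and 8 in XY +KTS KO, and Wnt6 turned direction between the mutants (0.41), as did Tesc in +KTS KO minus WT (4.18).

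Leaving out 1 library gave 9 to 114 calls in -KTS KO minus WT, 2 to 11 in +KTS KO minus WT, 24 to 502 in -KTS KO minus +KTS KO, 8 to 250, 0 to 1 and 0 to 10 in XX minus XY (WT, then -KTS KO, then +KTS KO), 0 to 9 and 0 to 13 in the interactions, 0 to 11 and 1 to 11 in the XX mutants, and 6 to 104 and 1 to 19 in the XY mutants. The lone library left in a group was assumed to vary like the other groups.

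Same-numbered replicates did not deviate together throughout. Over 15 pairs of groups r ran from -0.479 to 0.453, with 5 above 0.1 and 6 below -0.1. The numbers thus do not pair all libraries, and deviations that some libraries share were not modelled in the main fit. With the replicate block 30 genes were called in -KTS KO minus WT and 4 in the +KTS KO interaction. Under it the Lefty1 interactions, that of Tmem63a in +KTS KO, Aurkc, Acy1 and Sult4a1 in -KTS KO minus WT and Kcnip3 in XY +KTS KO were among the calls lost. Of 37 named calls, 2 held under every alternative, Lefty2 in XX +KTS KO and Rhox4c between the mutants. With 2 libraries a group the calls depend on single libraries, and the cause of each change was not tested.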
